A study of Arabidopsis with 8 samples.

Results

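Root and shoot transcripts were compared within Arabidopsis thaliana seedlings of OE-SAUR41, a line labelled as overexpressing SAUR41, at an age of 5 days. The comparison took all 4 OE-SAUR41 libraries, 2 from roots and 2 from shoot parts (called shoots here), out of 8 libraries in the study. The other 4 libraries were from roots and shoots of the Col-0 wild type, 2 each, and served as a second view of the same tissues. Total RNA was sequenced on an Illumina HiSeq, and the deposited values are FPKM, which divides the fragments of a gene by its transcript length and by the library's mapped total. The sources used here do not give the promoter that drives SAUR41, the number of independent lines, the growth medium or the light regime. No label states that replicate libraries had separate cultures behind them, and the p-values below may therefore reflect technical spread only. Of 25404 genes listed in any library, 19099 reached 1 FPKM in at least 2 of the 4 OE-SAUR41 libraries, and 19096 of these were tested after 3 genes with failed estimates were set aside.

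Roots anchor the seedling and take up water and ions through an epidermis with root hairs, behind which the endodermis is sealed by the Casparian strip and by suberin. Shoots at this age consist of cotyledons, hypocotyl and the first leaf primordia, carry out photosynthesis in chloroplasts, and are covered by a waxy cuticle with stomata. SAUR41 belongs to the SMALL AUXIN UP RNA family of short proteins, several of which promote cell expansion by inhibiting D-clade PP2C phosphatases and so keeping plasma membrane proton pumps active.

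Marker genes lay on the side of the tissue labels. All 7 root markers (CASP1, MYB36, EXPA7, PRP3, PLT1, SMB and SKOR) were higher in both root libraries, and all 7 shoot markers (RBCS1A, LHCB3, CER6, TMM, KAT1, STM and YAB1) were higher in both shoot libraries. The summed level of the root markers was 235 and 269 FPKM in roots and 5.28 and 7.90 FPKM in shoots. The summed level of the shoot markers was 56.5 and 68.4 FPKM in roots and 25496 and 25307 FPKM in shoots, most of it from RBCS1A and LHCB3. EXPA7, PLT1 and SKOR were listed at 0 in both shoot libraries. In whole organs, fewer cells of a type and less RNA per cell cannot be told apart.

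SAUR41 (AT1G16510, chromosome 1, 5644572 to 5645443, TAIR10) was abundant in both organs of the line. It stood at 7996 and 4670.3 FPKM in OE-SAUR41 roots and 10675 and 10248 FPKM in OE-SAUR41 shoots, against 4.64 and 7.46 FPKM in Col-0 roots and 4.93 and 8.29 FPKM in Col-0 shoots. SAUR41 was thus far above every Col-0 value in all 4 OE-SAUR41 libraries, and took 1.27% and 0.737% of summed FPKM in OE-SAUR41 roots and 1.41% and 1.35% in OE-SAUR41 shoots. Both root values lay below both shoot values, but the root pair was far apart, and the log2 fold change of root over shoot was -0.78 (SE 0.40, limma adjusted p = 0.104), which missed the threshold. It passed without root 1 (-1.16, limma adjusted p = 0.00657) and without root 2 (-0.39, limma adjusted p = 0.0163), and quantile normalization turned the direction (0.98, limma adjusted p = 0.0103), so no organ difference of SAUR41 is stated. Whether these reads come from the transgene or the native gene was not tested.

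The relatives of SAUR41 went opposite ways. SAUR72 (AT3G12830) was higher in roots, at 8.16 and 10.2 FPKM in roots and 3.21 and 2.35 FPKM in shoots, a log2 difference of 1.43 (SE 0.24, limma adjusted p = 7.35e-04). SAUR71 (AT1G56150) was lower in roots, at 0.299 and 0.118 FPKM in roots and 2.55 and 3.74 FPKM in shoots, with -1.77 (SE 0.23, limma adjusted p = 1.69e-04). SAUR40 was listed at 0 in all 4 libraries. Neither pair of tissues overlapped for SAUR72 or SAUR71. Lack of overlap was common in OE-SAUR41. Among 19096 genes tested, both roots lay above both shoots in 14711 and below both in 3116. It therefore sets no gene apart by itself, here or below. After a correction for gene span, described below, SAUR72 had 0.58 and SAUR71 -2.68. SAUR72 was not called under TMM scaling (0.19), quantile normalization (0.11) or median centring (0.17), and SAUR71 was called lower under each. SAUR genes are close in sequence, and no source here says how reads shared between them were counted.

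Most genes differed between the organs, and on the deposited FPKM scale most of them were higher in roots. With limma on log2(FPKM + 1), 16659 of 19096 genes (87.2%) passed a Benjamini-Hochberg adjusted p of 0.05, of which 13949 (73.0% of genes tested) were higher in roots and 2710 (14.2%) lower. Over all genes tested the median was 1.26 on the log2 scale, with quartiles of 0.39 and 1.98. A total of 155 genes were more than 32-fold higher in roots and 223 more than 32-fold lower. Changes of weakly expressed genes are understated on this scale.

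The excess of genes called higher in roots depended on the scaling between libraries. The 100 most abundant genes took 16.6% and 17.3% of summed FPKM in roots and 47.8% and 47.2% in shoots, and 22487 to 23028 genes were listed per root library against 19573 to 19824 per shoot library. TMM scaling gave 6621 higher (34.7%) and 6460 lower (33.8%) calls, 13081 in all (68.5%), quantile normalization 7331 higher and 5068 lower, and median centring 5867 higher and 6248 lower. A total of 4286 genes were called higher and 2696 lower on the deposited scale and under all 4 scalings tried, the span correction included. Gene groups are therefore given with their median, to be set beside the 1.26 of all genes. A count of members called higher is to be read against the background of 73.0%, and one of members called lower against 14.2%. A member under 1 FPKM in both libraries of an organ passed the filter only through the other organ, which fixes its direction. This applies to every such member below, also where it is not repeated, and to the counts and medians that include it.

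The contrast also followed the length of the gene on the genome. Among 16156 genes that share their locus with no other gene in the files, the median log2 fold change was 0.79 in the shortest eighth (164 to 1072 bases) and 1.87 in the longest (4065 to 26435 bases). The OE-SAUR41 medians lay close to those of Col-0 roots against Col-0 shoot 2 alone, which went from 0.57 in the shortest eighth to 1.91 in the longest. They parted from those of Col-0 roots against Col-0 shoot 1 alone, at 0.77 in the shortest eighth and 0.51 in the longest. The Col-0 shoot pair thus held both patterns, and both OE-SAUR41 shoot libraries showed the same one, with longest-eighth medians of 1.87 and 1.85 when each was used alone. The OE-SAUR41 roots parted more, with longest-eighth medians of 2.04 with root 1 alone and 1.71 with root 2 alone. The cause of this trend was not tested. A correction that removed the span trend from each library gave 5127 genes called higher (26.8%) and 6584 called lower (34.5%), 11711 in all (61.3%), with a median of -0.09, and its counts are given beside those of the gene groups below.

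**Figure D1:**
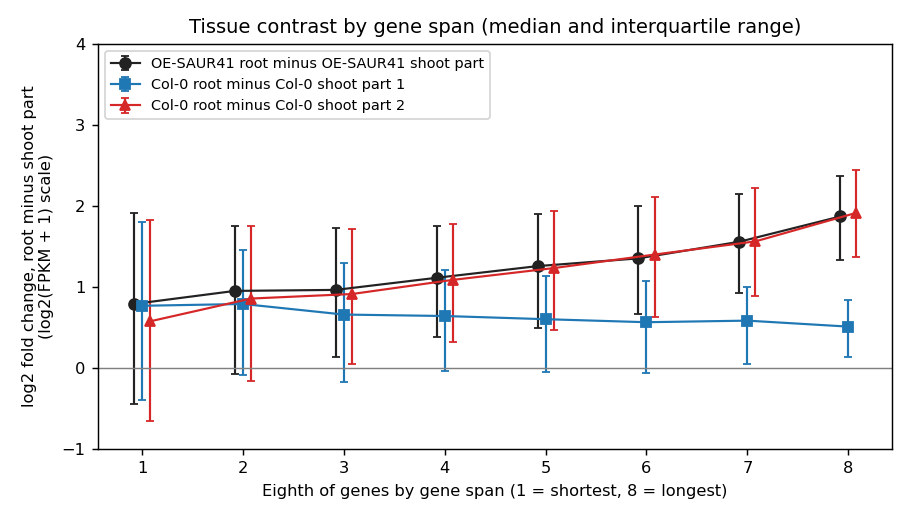
Median log2 fold change of root minus shoot part (vertical axis, log2(FPKM + 1) scale, bars for the interquartile range) in 8 equal groups of genes ordered by gene span (horizontal axis), for OE-SAUR41 and for Col-0 roots against each Col-0 shoot library alone. OE-SAUR41 climbs to 1.87 in the longest eighth and lies close to the Col-0 contrast with shoot 2, while the contrast with Col-0 shoot 1 ends at 0.51.

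The largest rises in roots were genes almost absent from shoots. By a rule that asked for at least 20 FPKM in the higher organ, libraries that did not overlap and no shared locus, the largest log2 fold change was 8.98 for AT3G28550, with 472 and 559.8 FPKM in roots and 0 and 0.0394 FPKM in shoots. DOX1 (AT3G01420, chromosome 3, 159466 to 162837), an alpha-dioxygenase that oxidizes fatty acids, stood at 879 and 831 FPKM in roots and 1.45 and 1.52 FPKM in shoots, a log2 difference of 8.43 (SE 0.11, limma adjusted p = 5.63e-09). BGLU21 (AT1G66270), a beta-glucosidase of endoplasmic reticulum bodies, stood at 304 and 379.6 FPKM in roots and 0.711 and 0.124 FPKM in shoots, with 7.94 (SE 0.22, limma adjusted p = 7.11e-08). Each of these was abundant in both root libraries and near the lower end of the range in both shoot libraries. The jacalin-like lectin gene JAL10 (251 and 246 FPKM in roots and 0 and 0.0607 FPKM in shoots), the major latex protein-like gene MLP328 (481 and 546 FPKM in roots and 1.57 and 0.895 FPKM in shoots) and the peroxidase gene PER27 (221 and 236 FPKM in roots and 0.0727 and 0.0306 FPKM in shoots) had log2 fold changes of 7.92, 7.86 and 7.77. AT1G23720, AT3G54580, AT5G46890 and MLP329 completed the 10, and AT5G46890 was listed at 0 in both shoots, so it is given no fold.

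Of the 10 largest falls in roots, 8 were LHCB or RBCS genes, of light harvesting and carbon fixation. LHB1B1 (AT2G34430, chromosome 2, 14524756 to 14525763), a chlorophyll a/b-binding protein of the photosystem II antenna, stood at 2.49 and 3.52 FPKM in roots and 9316 and 9016 FPKM in shoots, with a log2 difference of -11.17 (SE 0.14, limma adjusted p = 5.63e-09). RBCS3B (AT5G38410), a Rubisco small subunit, stood at 5.38 and 9.39 FPKM in roots and 12849.5 and 12593 FPKM in shoots, with -10.61 (SE 0.21, limma adjusted p = 1.83e-08). AT2G10940 stood at 0.647 and 1.68 FPKM in roots and 3190.3 and 3191 FPKM in shoots, with -10.57, and GER3, a germin-like protein, at 0.949 and 0.848 FPKM in roots and 2128 and 2112 FPKM in shoots, with -10.13. The other members of the 10 were LHCB1.1, LHCB1.2, LHCB2.1, LHCB2.2, RBCS1B and RBCS2B, from -10.61 to -9.84. The 10 genes lay between 0.647 and 9.39 FPKM in roots and between 2112 and 12850 FPKM in shoots. RBCS and LHCB genes have close paralogs, between which reads may have been split.

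**Figure D2:**
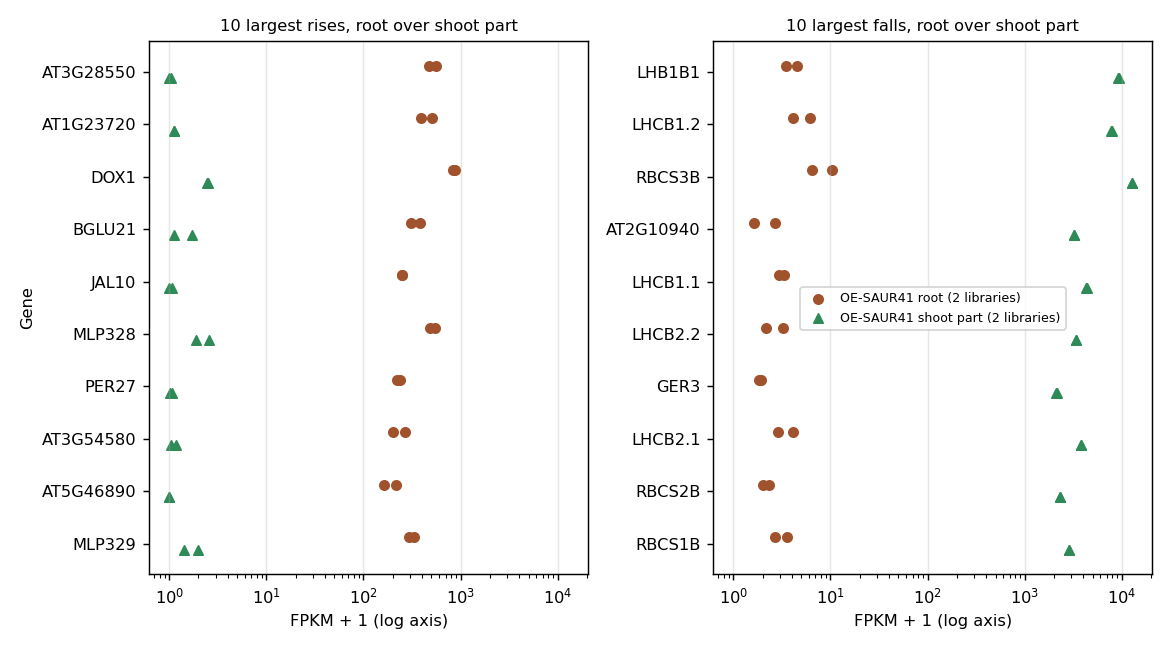
FPKM + 1 in each OE-SAUR41 library (log axis) for the 10 genes with the largest rises (left) and the 10 with the largest falls (right) in roots over shoot parts, circles for roots and triangles for shoot parts. In each gene the 2 libraries of an organ lie close together. The gap between the organs was required by the rule that chose the genes.

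Some genes were listed in one organ only. At 5 FPKM or more in both roots and listed in neither shoot were 206 genes, and the reverse held for 47. Because FPKM files hold no counts, the limit that an unlisted gene allows is unknown.

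Photosynthesis genes of the nucleus fell together in roots. Of 39 genes for light harvesting and photosystem proteins, all 38 that were tested were called lower (background 14.2%), with a median of -7.70, from -10.61 for LHCB1.2 to -4.98 for ATPC1, the gamma subunit of the chloroplast ATP synthase. PSAE1 (AT4G28750), a stromal subunit of photosystem I, stood at 4.54 and 6.48 FPKM in roots and 3207 and 3277 FPKM in shoots, with a log2 difference of -8.98 (SE 0.15, limma adjusted p = 8.87e-09). Together these genes made up 0.0807% and 0.0936% of summed FPKM in roots and 20.8% and 20.6% in shoots. LHCB1.3 was left out because 1 Col-0 shoot library did not list it.

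Carbon fixation and photorespiration followed the same way, with 27 of 28 genes called lower and a median of -6.42. RBCS1A (AT1G67090), a Rubisco small subunit and the most abundant member, stood at 35.00 and 45.1 FPKM in roots and 20512 and 20309 FPKM in shoots, with -8.97 (SE 0.18, limma adjusted p = 1.61e-08). FBA1 (AT2G21330), a plastid fructose-bisphosphate aldolase, stood at 0.768 and 1.84 FPKM in roots and 713 and 689 FPKM in shoots, with -8.29 (SE 0.21, limma adjusted p = 4.67e-08). RBCS1A was still measurable in both roots. The member that was not called was CAT2, a catalase of photorespiration, with a log2 fold change of -0.06 (limma adjusted p = 0.65).

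In chlorophyll synthesis 14 of 15 genes were called lower in roots, with a median of -3.69. PORB (AT4G27440), a protochlorophyllide oxidoreductase, stood at 6.95 and 6.85 FPKM in roots and 982 and 986 FPKM in shoots, with -6.96 (SE 0.10, limma adjusted p = 5.63e-09), and its relative PORC at 0.9202 and 1.28 FPKM in roots and 97.7 and 95.2 FPKM in shoots, with -5.54. GUN4, a regulator of magnesium chelatase, had -5.42, and CHLH, a subunit of that enzyme, -4.75. The exception was HEMA2 (AT1G09940), a glutamyl-tRNA reductase isoform, called higher in roots at 23.2 and 13.2 FPKM in roots and 7.62 and 6.22 FPKM in shoots (1.23, not called without root 1), a direction that turned under TMM scaling (-0.15), median centring (-0.03) and the span correction (-0.07). After the span correction 38 light harvesting and photosystem genes, 28 carbon fixation and photorespiration genes and 14 chlorophyll synthesis genes were called lower, and none higher.

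Regulators of light response split between the organs. Of 16 tested from a list of 17, 6 were called higher and 7 lower in roots, with a median of -0.37, and 2 higher and 10 lower after the span correction. GLK1 (AT2G20570), which with GLK2 activates chloroplast genes, stood at 0.1500 and 0.419 FPKM in roots and 78.6 and 90.3 FPKM in shoots, with -6.06 (SE 0.19, limma adjusted p = 1.57e-07), and GLK2 at 3.397 and 2.93 FPKM in roots and 44.4 and 38.4 FPKM in shoots, with -3.35. PIF4 and PIF5, bHLH factors of shade growth, stood at 0.127 and 0 FPKM and 0.213 and 0.217 FPKM in roots and 23.5 and 22.7 FPKM and 17.7 and 17.8 FPKM in shoots. HY5 (AT5G11260), a bZIP factor of photomorphogenesis, went the other way, at 24.7 and 22.3 FPKM in roots and 1.44 and 1.21 FPKM in shoots, with 3.40 (SE 0.21, limma adjusted p = 4.02e-06). Its homolog HYH stood at 12.5 and 6.89 FPKM in roots and 0.146 and 0.591 FPKM in shoots, with 2.93. GLK and PIF transcripts were thus shoot-biased and HY5 and HYH root-biased. GLK1, PIF4 and PIF5 were under 1 FPKM in both roots, and HYH in both shoots, so the filter fixed their directions. GLK2 and HY5 were free of this limit, and their directions held under all 4 scalings.

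Genes of the chloroplast genome were less uniform than the nuclear photosynthesis genes. Of 67 tested among 77 in the files, 15 were called higher and 19 lower in roots, with a median of 0.00, and 0 higher and 30 lower after the span correction. They made up 0.0653% and 0.160% of summed FPKM in roots and 1.73% and 1.71% in shoots. The largest falls were the ribosomal RNA genes RRN23S.2 and RRN23S.1, each with -5.53. RRN23S.1 stood at 50.5 and 90.3 FPKM in roots and 3175 and 3142.5 FPKM in shoots, with RRN23S.2 nearly equal. These genes weigh heavily in the summed share of shoots. ACCD, a subunit of plastid acetyl-CoA carboxylase, stood at 5.67 and 18.8 FPKM in roots and 2.03 and 1.33 FPKM in shoots, and RPOA, a subunit of the plastid RNA polymerase, at 3.68 and 17.9 FPKM in roots and 0.443 and 2.33 FPKM in shoots. In both genes root 2 was more than 3-fold above root 1, and the RPOA call was lost without root 1, without root 2 and without shoot 1. Of 53 tested genes of the mitochondrial genome, 39 were called higher in roots (73.6%, near the background of 73.0%) and 1 lower, with a median of 2.00, and 29 were called higher and 8 lower after the span correction. They made up 0.262% and 0.407% of summed FPKM in roots and 0.0472% and 0.0497% in shoots. Organelle transcripts mostly lack poly(A) tails, and the labels do not state whether poly(A) selection was used.

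Leaf and root isoforms of plastid redox and nitrogen enzymes exchanged places between the organs. Of 20 genes on this list 12 were called higher in roots and 8 lower, with a median of 1.41, and 10 each way after the span correction. Leaf ferredoxin FD2 (AT1G60950), which carries electrons from photosystem I, stood at 32.9 and 50.02 FPKM in roots and 3688 and 3666 FPKM in shoots, with -6.47 (SE 0.19, limma adjusted p = 1.10e-07). Root ferredoxin FD3 (AT2G27510), which feeds nitrite and sulfite reduction in non-green plastids, stood at 427 and 632 FPKM in roots and 80.1 and 67.6 FPKM in shoots, with 2.80 (SE 0.19, limma adjusted p = 6.80e-06). Leaf FD1 was lower in roots (31.6 and 41.4 FPKM in roots and 726 and 749 FPKM in shoots, -4.31).

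The ferredoxin-NADP reductases showed the same exchange. The leaf enzyme LFNR2 (AT1G20020) stood at 2.78 and 1.99 FPKM in roots and 153 and 165 FPKM in shoots, with -5.57 (SE 0.15, limma adjusted p = 7.38e-08). The root enzyme RFNR2 (AT1G30510) stood at 327 and 350.3 FPKM in roots and 6.74 and 6.01 FPKM in shoots, with 5.53 (SE 0.11, limma adjusted p = 1.98e-08), and RFNR1 at 86.3 and 96.6 FPKM in roots and 18.03 and 16.4 FPKM in shoots, with 2.34. The root reductases were thus abundant in roots and low in shoots, and LFNR2 the reverse. LFNR1 shares its locus with another gene in the files and had -5.03.

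Enzymes of ammonium assimilation split by isoform too. GLN2 (AT5G35630), the plastid glutamine synthetase of leaves, stood at 102 and 104 FPKM in roots and 577 and 596 FPKM in shoots, with -2.50 (SE 0.11, limma adjusted p = 8.90e-07). Cytosolic GLN1;2 (AT1G66200) stood at 1273 and 1646 FPKM in roots and 126 and 121 FPKM in shoots, with 3.54 (SE 0.16, limma adjusted p = 8.51e-07), and GLN1;3 and GLN1;4 had 1.78 and -0.87. GLN1;1 had 0.79, but TMM scaling (-0.71), median centring (-0.47) and the span correction (-0.50) turned its direction. Among the glutamate synthases, ferredoxin-dependent GLU1 stood at 0.823 and 1.02 FPKM in roots and 26.6 and 26.4 FPKM in shoots (-3.84), its relative GLU2 at 61.4 and 53.2 FPKM in roots and 3.66 and 4.17 FPKM in shoots (3.57) and NADH-dependent GLT1 at 247 and 211 FPKM in roots and 12.1 and 10.96 FPKM in shoots (4.2). GLU1 was therefore the shoot form of the 3, and GLU2 and GLT1 the root forms, in every library.

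Phosphoenolpyruvate carboxylase and plasma membrane proton pump genes completed the list. PPC3 (AT3G14940) stood at 228 and 245 FPKM in roots and 2.17 and 2.27 FPKM in shoots, with 6.20 (SE 0.12, limma adjusted p = 1.53e-08), and PPC1 had 2.29. PPC2 was lower in roots, at 19.9 and 20.3 FPKM in roots and 76.4 and 76.8 FPKM in shoots, with -1.88 (SE 0.11, limma adjusted p = 3.22e-06). AHA2 (AT4G30190), the main root pump and a downstream target of SAUR action, stood at 732 and 901 FPKM in roots and 48.9 and 55.04 FPKM in shoots, with 3.94 (SE 0.14, limma adjusted p = 2.57e-07). AHA1 stood at 222 and 259 FPKM in roots and 116 and 115 FPKM in shoots, with 1.04, a direction that turned under TMM scaling (-0.46), median centring (-0.22) and the span correction (-0.85).

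Because a share within a library does not depend on scaling between libraries, 9 pairs of related genes, chosen after the values were seen, were also set against each other inside each library. FD3 made up 92.8% and 92.7% of the summed FPKM of FD3 and FD2 in roots and 2.13% and 1.81% in shoots. The share of RFNR2 beside LFNR2 was 99.2% and 99.4% in roots and 4.21% and 3.51% in shoots, and that of GLN1;2 beside GLN2 92.6% and 94.1% in roots and 17.9% and 16.9% in shoots. GLT1 took 99.7% and 99.5% beside GLU1 in roots and 31.2% and 29.3% in shoots, and PPC3 91.99% and 92.4% beside PPC2 in roots and 2.76% and 2.87% in shoots. In each of these pairs the first gene was the larger in both roots and the smaller in both shoots. AHA2 took 76.7% and 77.7% beside AHA1 in roots and 29.6% and 32.3% in shoots. A share can still move with gene span, and the members of each pair differed in span.

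**Figure D3:**
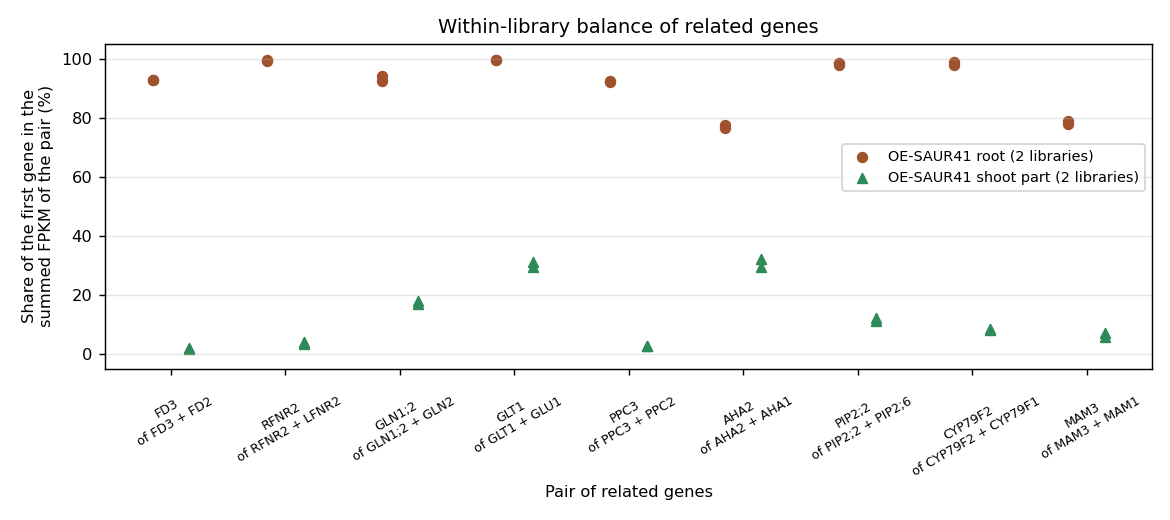
Share of the first-named gene in the summed FPKM of each of 9 gene pairs (vertical axis, percent) in the OE-SAUR41 libraries, circles for roots and triangles for shoot parts. In all 9 pairs both roots lie above both shoots, and the gap is narrowest for AHA2 beside AHA1, at 76.7% and 77.7% in roots and 29.6% and 32.3% in shoots.

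Root hair genes were higher in roots throughout the list. Of 24 genes 22 were tested and all 22 were called higher in roots, with a median of 3.19. After the span correction 20 were higher and 2 lower (background 26.8% and 34.5%). PRP3 (AT3G62680), a proline-rich wall protein, stood at 64.3 and 95.8 FPKM in roots and 0.934 and 0 FPKM in shoots, with 5.84 (SE 0.33, limma adjusted p = 2.96e-06). LRX1 (AT1G12040), a leucine-rich repeat extensin of the hair wall, stood at 25.9 and 33.7 FPKM in roots and 0.0778 and 0 FPKM in shoots, with 4.88. XTH14, a xyloglucan-modifying enzyme, stood at 30.9 and 38.1 FPKM in roots and 0.182 and 0.0309 FPKM in shoots and PRPL1 at 31.7 and 41.5 FPKM in roots and 0 and 0.116 FPKM in shoots. Shoot values of these 4 genes, and of RHS19 (0.111 and 0 FPKM), were all under 1 FPKM. The genes passed the filter through the roots alone, which fixed their direction. The count of 22 and the median include such members.

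Genes of the endodermal barriers were higher in roots as well. Of 21 genes for the Casparian strip and suberin, 20 were called higher and 1 lower, with a median of 3.78, and 18 higher and 2 lower after the span correction. CASP2 (AT3G11550), a scaffold protein of the Casparian strip domain, stood at 44.2 and 40.4 FPKM in roots and 0.954 and 0.647 FPKM in shoots, with 4.59 (SE 0.20, limma adjusted p = 7.93e-07). ASFT (AT5G41040), which feruloylates suberin monomers, stood at 82.8 and 69.4 FPKM in roots and 2.16 and 2.33 FPKM in shoots, with 4.57 (SE 0.16, limma adjusted p = 2.31e-07). FAR5, a fatty acyl reductase of suberin, stood at 24.04 and 18.6 FPKM in roots and 0.0936 and 0.106 FPKM in shoots, with 4.33. The exception was KCS20 (AT5G43760), a fatty acid elongase that also serves cuticular wax, at 63.3 and 65.8 FPKM in roots and 84.7 and 92.95 FPKM in shoots, with -0.45, not called without shoot 2.

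All 10 genes of the root stem cell niche and root cap were called higher in roots, with a median of 2.46, and 9 after the span correction. PLT3 (AT5G10510), an AP2 factor of the root meristem, stood at 25.1 and 21.8 FPKM in roots and 0.488 and 0.349 FPKM in shoots, with 4.11 (SE 0.23, limma adjusted p = 2.57e-06). BBM, another AP2 factor, stood at 4.92 and 5.51 FPKM in roots and 0.141 and 0.0398 FPKM in shoots, and SMB, a NAC factor of the root cap, at 5.36 and 4.42 FPKM in roots and 0 and 0.128 FPKM in shoots. PLT1, at 6.01 and 6.73 FPKM in roots, and the root cap factor BRN1, at 7.43 and 7.14 FPKM, were listed at 0 in both shoots. Each of these 5 factors was under 1 FPKM in both shoots and passed the filter through its root values alone, which fixed its direction.

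Transporters for uptake and xylem loading were mostly root-biased. Of 28 genes 24 were tested, 23 were called higher in roots and none lower, with a median of 2.41. The member not called was AMT2;1, an ammonium transporter, at -0.03. SULTR1;2 (AT1G78000), the main sulfate uptake transporter, stood at 246 and 237 FPKM in roots and 1.19 and 1.56 FPKM in shoots, with 6.68 (SE 0.14, limma adjusted p = 1.86e-08). AMT1;3, an ammonium transporter, stood at 102 and 148 FPKM in roots and 1.09 and 0.829 FPKM in shoots, with 5.99, and PHT1;1, a phosphate transporter, at 337 and 461 FPKM in roots and 12.2 and 15.3 FPKM in shoots, with 4.75. NPF7.3 (AT1G32450), which loads nitrate into the xylem, stood at 409.6 and 450.3 FPKM in roots and 5.55 and 7.63 FPKM in shoots, with 5.84 (SE 0.15, limma adjusted p = 5.21e-08), and PHO1, which loads phosphate, at 157 and 132 FPKM in roots and 5.34 and 4.63 FPKM in shoots, with 4.60. After the span correction 17 members were higher and 3 lower.

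Aquaporins, the water channels of membranes, were divided by isoform. Of 20 genes 8 were called higher and 10 lower in roots, with a median of -0.52, and 6 higher and 12 lower after the span correction. TIP4;1 (AT2G25810), a tonoplast channel, stood at 72.4 and 91.3 FPKM in roots and 2.07 and 1.22 FPKM in shoots, with 4.98 (SE 0.21, limma adjusted p = 6.41e-07), and NIP1;1 at 90.9 and 101 FPKM in roots and 2.502 and 2.81 FPKM in shoots, with 4.73. PIP2;2 (AT2G37170), a plasma membrane channel, stood at 531 and 498 FPKM in roots and 59.1 and 62.7 FPKM in shoots, with 3.06. PIP2;6 (AT2G39010), its relative, stood at 8.59 and 10.6 FPKM in roots and 473 and 449 FPKM in shoots, with -5.45 (SE 0.13, limma adjusted p = 3.48e-08). PIP2;2 thus made up 98.4% and 97.9% of the pair in roots and 11.1% and 12.3% in shoots. TIP1;2 was abundant in both organs, at 808 and 948 FPKM in roots and 3532 and 3532 FPKM in shoots, with -2.01.

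Shoot meristem and leaf polarity genes were called both ways. Of 25 genes 19 were tested, with 7 called higher and 10 lower in roots, a median of -0.59, and 1 higher and 12 lower after the span correction. YAB1 (AT2G45190), a YABBY factor of the abaxial leaf side, stood at 0 and 0.124 FPKM in roots and 19.9 and 22.98 FPKM in shoots, with -4.40 (SE 0.24, limma adjusted p = 2.24e-06), and YAB3 at 0.125 and 0.0948 FPKM in roots and 15.3 and 13.7 FPKM in shoots, with -3.80. YAB2, at 10.4 and 10.1 FPKM in shoots, and YAB5, at 11.2 and 14.8 FPKM, were listed at 0 in both roots. STM (AT1G62360), a homeobox factor that maintains the shoot meristem, stood at 0.0404 and 0 FPKM in roots and 7.13 and 8.02 FPKM in shoots, with -3.07 (SE 0.22, limma adjusted p = 8.90e-06). The related KNAT6 was root-biased, at 8.94 and 7.36 FPKM in roots and 0.446 and 0.366 FPKM in shoots, with 2.70, and 0.87 after the span correction. The class III HD-ZIP factor PHB stood at 24.96 and 22.7 FPKM in roots and 4.97 and 4.92 FPKM in shoots, with 2.06 and 0.29 after the span correction.

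Stomatal genes were shoot-biased, with 9 of 11 tested (15 on the list) called lower in roots and a median of -1.45, and 10 after the span correction. TMM (AT1G80080), a receptor-like protein that spaces stomata, stood at 0.0982 and 0.232 FPKM in roots and 16.9 and 15.9 FPKM in shoots, with -3.90 (SE 0.23, limma adjusted p = 3.84e-06). The peptide genes EPF1, at 11.03 and 10.4 FPKM in shoots, and EPFL9, at 7.52 and 14.9 FPKM, were listed at 0 in both roots. So was FAMA, the bHLH factor of guard cell identity, at 2.12 and 1.69 FPKM in shoots. TMM, EPF1, EPFL9, FAMA and the further member SDD1 were under 1 FPKM in both roots. They passed the filter through the shoots alone, which fixed their direction, and the count of 9 includes them. OST1 (AT4G33950), a kinase of abscisic acid signalling, was the member called higher in roots, at 9.62 and 6.01 FPKM in roots and 1.36 and 1.22 FPKM in shoots (1.91, and 0.53 after the span correction).

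Genes of the cuticle and shoot epidermis were also shoot-biased. Of 22 genes 20 were tested, with 4 called higher and 14 lower in roots, a median of -1.90, and 0 higher and 18 lower after the span correction. LTP1 (AT2G38540), a lipid transfer protein, stood at 11.3 and 12.03 FPKM in roots and 2795 and 2829 FPKM in shoots, with -7.80 (SE 0.11, limma adjusted p = 5.63e-09). CER6 (AT1G68530), an elongase of wax synthesis, stood at 8.85 and 9.97 FPKM in roots and 251 and 256 FPKM in shoots, with -4.61 (SE 0.11, limma adjusted p = 4.32e-08), and CER1, of alkane formation, at 2.89 and 2.74 FPKM in roots and 32.9 and 35.4 FPKM in shoots, with -3.20. CER4 (AT4G33790), an alcohol-forming reductase of the same pathway, had the largest rise in roots, at 2.58 and 3.38 FPKM in roots and 0.0559 and 0.593 FPKM in shoots, with 1.61, not called without root 2, and 0.02 after the span correction. Most wax and cutin genes named here were still measurable in roots.

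Genes for aliphatic glucosinolates lay below the median of all genes. Of 13 tested genes for aliphatic glucosinolates, sulfur-rich defence compounds made from methionine, 3 were called higher and 8 lower in roots, with a median of -0.41, and 2 higher and 10 lower after the span correction. CYP79F1 (AT1G16410), a P450 that starts the core pathway, stood at 0.977 and 1.97 FPKM in roots and 183 and 191 FPKM in shoots, with -6.28 (SE 0.20, limma adjusted p = 1.44e-07). CYP79F2 (AT1G16400), its neighbour on chromosome 1 that acts on long-chain substrates, stood at 79.8 and 92.1 FPKM in roots and 16.7 and 16.96 FPKM in shoots, with 2.28 (SE 0.12, limma adjusted p = 2.15e-06). The chain elongation synthases showed the same divide, with MAM3 at 219 and 215 FPKM in roots and 11.00 and 8.73 FPKM in shoots (4.34) and MAM1 at 58.7 and 60.97 FPKM in roots and 147 and 146 FPKM in shoots (-1.28). MAM3 acts on long and short chains and MAM1 on short ones. CYP79F2 made up 98.8% and 97.9% of its pair with CYP79F1 in roots and 8.39% and 8.14% in shoots, and MAM3 78.9% and 77.9% of its pair with MAM1 in roots and 6.97% and 5.65% in shoots.

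Of 14 genes for indole glucosinolates, made from tryptophan, 11 were called higher and 2 lower in roots, with a median of 1.31, close to that of all genes, and 3 higher and 4 lower after the span correction. MYB34 (AT5G60890), an activator of this pathway, stood at 51.4 and 42.5 FPKM in roots and 5.97 and 5.39 FPKM in shoots, with 2.84 (SE 0.16, limma adjusted p = 2.45e-06). IGMT1, a methyltransferase that modifies the indole ring, stood at 89.7 and 75.6 FPKM in roots and 14.2 and 11.2 FPKM in shoots, with 2.62.

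Root triterpene, coumarin and endoplasmic reticulum body genes showed the highest list median, 5.02. All 13 tested of 16 were called higher in roots (background 73.0%). THAD (AT5G47990), a P450 of the thalianol gene cluster, stood at 159 and 184 FPKM in roots and 1.29 and 1.796 FPKM in shoots, with 6.08 (SE 0.16, limma adjusted p = 5.42e-08), and THAH of the same cluster at 89.9 and 85.4 FPKM in roots and 1.56 and 1.91 FPKM in shoots, with 5.02. ABCG37 (AT3G53480), a transporter that exports coumarins, stood at 111 and 95.8 FPKM in roots and 0.201 and 0.116 FPKM in shoots, with 6.49 (SE 0.18, limma adjusted p = 7.19e-08). BGLU22, a relative of BGLU21, stood at 191 and 209 FPKM in roots and 0.1897 and 0.161 FPKM in shoots, with 7.42. BGLU21, BGLU22, ABCG37 and the further member F6'H1 were under 1 FPKM in both shoots. They passed the filter through the roots alone, which fixed their direction, and the count and median include them. After the span correction 12 members were called higher and 1 lower.

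**Figure D4:**
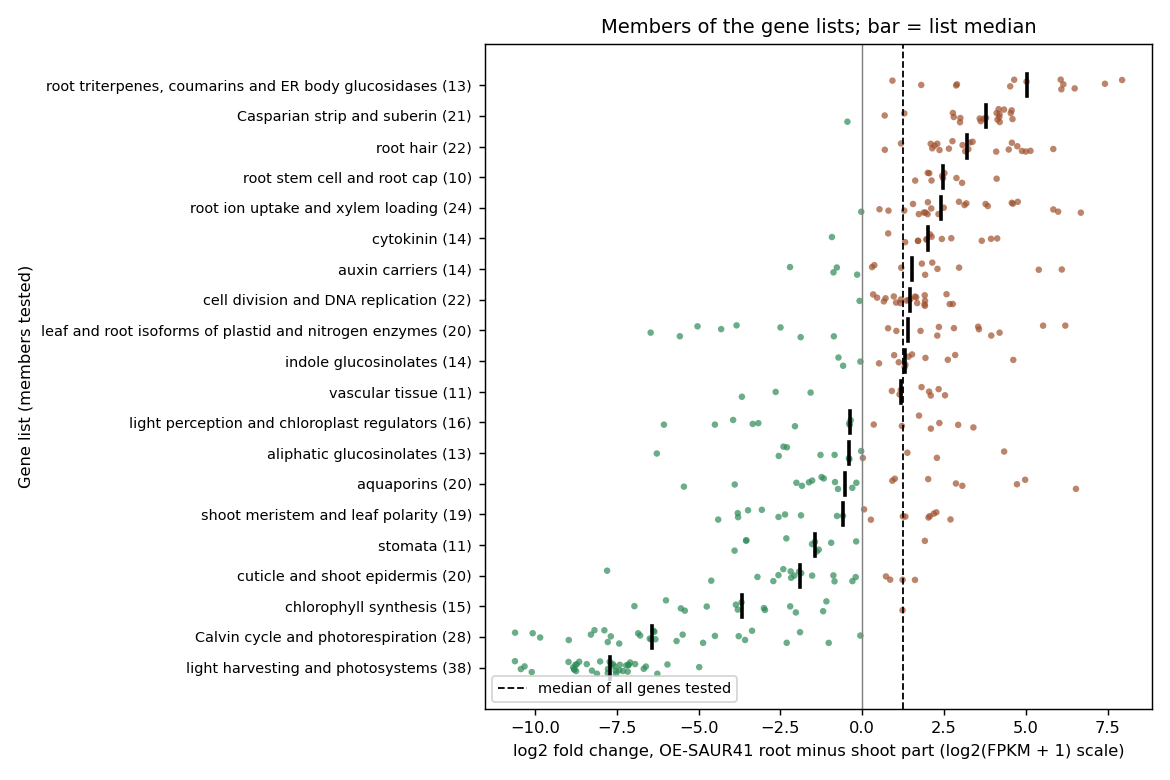
Log2 fold change of OE-SAUR41 root minus shoot part (horizontal axis, log2(FPKM + 1) scale) for each tested member of 20 gene lists (rows), ordered by list median (black bar). The dashed line is the median of all genes tested, 1.26, with the photosynthesis lists far to its left (medians of -7.70, -6.42 and -3.69) and the list of root triterpenes, coumarins and endoplasmic reticulum body genes farthest to its right (5.02).

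Auxin carriers were called in both directions. Of 14 tested of 15, 9 were called higher (64.3%, background 73.0%) and 3 lower (21.4%, background 14.2%) in roots. The median was 1.51, with 5 higher and 7 lower after the span correction. PIN2 (AT5G57090), the auxin efflux carrier of root epidermis and cortex, stood at 73.8 and 72.6 FPKM in roots and 0.0732 and 0.0935 FPKM in shoots, with 6.10 (SE 0.18, limma adjusted p = 1.15e-07). ABCB4, an auxin transporter of root hair cells and epidermis, stood at 100.4 and 78.9 FPKM in roots and 1.17 and 1.11 FPKM in shoots, with 5.39. LAX1 (AT5G01240), an influx carrier, was lower in roots at 9.83 and 12.5 FPKM in roots and 52.6 and 57.4 FPKM in shoots, with -2.21 (SE 0.15, limma adjusted p = 6.67e-06), as was the efflux carrier PIN4 at 16.8 and 17.2 FPKM in roots and 32.4 and 31.8 FPKM in shoots, with -0.88. PIN2 and ABCB4 were near the lower end of the range in shoots, while LAX1 and PIN4 were measurable in every library.

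Cytokinin genes were root-biased, with 13 of 14 tested (17 on the list) called higher, a median of 2.02, and 8 higher and 1 lower after the span correction. AHK4 (AT2G01830), a cytokinin receptor, stood at 32.4 and 21.96 FPKM in roots and 0.684 and 0.499 FPKM in shoots, with 4.12 (SE 0.26, limma adjusted p = 4.45e-06). ABCG14 (AT1G31770), which exports cytokinin for transport to the shoot, stood at 88.8 and 84.9 FPKM in roots and 5.01 and 4.48 FPKM in shoots, with 3.94 (SE 0.13, limma adjusted p = 1.88e-07), and CYP735A2, which makes trans-zeatin, at 13.7 and 13.9 FPKM in roots and 0.165 and 0.188 FPKM in shoots, with 3.65. The exception was the response regulator ARR16, at 0.238 and 0.353 FPKM in roots and 1.08 and 1.91 FPKM in shoots, with -0.93, a call that was lost without either root library.

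The SAUR genes outside the SAUR41 subfamily were spread over both organs. Of 68 in the files 34 were tested, with 21 called higher and 9 lower in roots and a median of 1.19, and with 15 higher and 10 lower after the span correction. SAUR55 (AT5G50760) stood at 43.6 and 64.8 FPKM in roots and 0.675 and 0.803 FPKM in shoots, with 4.96 (SE 0.23, limma adjusted p = 1.11e-06), and SAUR32 at 26.4 and 32.7 FPKM in roots and 0.737 and 1.903 FPKM in shoots, with 3.76. SAUR14 (AT4G38840) stood at 0.184 and 0.112 FPKM in roots and 9.41 and 9.12 FPKM in shoots, with -3.16 (SE 0.23, limma adjusted p = 8.71e-06), and SAUR16 at 0.365 and 0.703 FPKM in roots and 9.500 and 6.59 FPKM in shoots, with -2.55. The first pair was low in shoots and the second low in roots.

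Vascular genes were called both ways. Of 11 genes 8 were called higher (72.7%, background 73.0%) and 3 lower (27.3%, background 14.2%) in roots. The median was 1.18, close to that of all genes, with 2 higher and 4 lower after the span correction. XCP1 (AT4G35350), a protease of xylem cells, stood at 91.7 and 78.6 FPKM in roots and 16.98 and 15.1 FPKM in shoots, with 2.33 (SE 0.13, limma adjusted p = 2.65e-06). The 3 lower genes were all sucrose transporters of the phloem. SWEET11 (AT3G48740) stood at 12.8 and 12.7 FPKM in roots and 175 and 175 FPKM in shoots, with -3.68 (SE 0.11, limma adjusted p = 9.01e-08), SUC2 had -2.65 and SWEET12 -1.58. These 3 were lower in roots under all 4 scalings.

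Cell division genes lay near the median of all genes. Of 22 genes 20 were called higher in roots and none lower, with a median of 1.45, and 6 higher and 6 lower after the span correction. KNOLLE (AT1G08560), a syntaxin of the dividing cell plate, stood at 38.5 and 32.4 FPKM in roots and 7.74 and 9.53 FPKM in shoots, with 1.92, and the replication factor MCM2 at 15.5 and 12.1 FPKM in roots and 1.68 and 1.28 FPKM in shoots, with 2.58.

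Wall-loosening families held strong members on both sides. Of 26 tested XTH genes, for enzymes that cut and rejoin xyloglucan, 14 were called higher and 9 lower in roots, with a median of 1.06, and 12 and 11 after the span correction. XTH20 (AT5G48070) stood at 39.2 and 40.7 FPKM in roots and 0 and 0.554 FPKM in shoots, with 5.04, while XTH7 (AT4G37800) stood at 4.54 and 5.68 FPKM in roots and 542 and 538 FPKM in shoots, with -6.47. Of 17 tested alpha-expansins, 9 were called higher and 7 lower, with a median of 0.68, and 7 and 8 after the span correction. EXPA18 and EXPA7, expansins of root hairs, were at 20.97 and 24.8 FPKM and 19.8 and 22.9 FPKM in roots and listed at 0 in both shoots. EXPA3 and EXPA5 stood at 1.01 and 1.18 FPKM and 0.164 and 0.0485 FPKM in roots and 82.98 and 92.4 FPKM and 40.2 and 37.6 FPKM in shoots, with log2 fold changes of -5.40 and -5.17.

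Among families of detoxification and oxidative enzymes, taken by the pattern of their gene symbols like the other protein families here, the glutathione transferases and peroxidases had medians well above that of all genes. Of 25 tested tau class glutathione transferases 20 were called higher and 5 lower, with a median of 3.05, and of 62 tested genes with PER or PRX symbols, used for class III peroxidases, 49 were called higher and 9 lower, with a median of 3.18. After the span correction these were 18 and 5, and 46 and 14. GSTU25 (AT1G17180) stood at 243 and 205 FPKM in roots and 0.438 and 0.737 FPKM in shoots, with 7.15 (SE 0.16, limma adjusted p = 3.19e-08), and the peroxidase PER57 at 171 and 204 FPKM in roots and 0.578 and 0.289 FPKM in shoots, with 7.04. Of 87 UDP-glycosyltransferases 63 were called higher and 20 lower, and of 149 cytochrome P450 genes 98 higher and 36 lower, each with a median near that of all genes (1.41 and 1.52), and after the span correction these were 39 and 27, and 65 and 52. UGT72E2, which glucosylates monolignols, stood at 97.4 and 118 FPKM in roots and 0.379 and 0.238 FPKM in shoots, with 6.37. Among 30 ABCG transporters 21 were called higher (70.0%, background 73.0%) and 9 lower, with a median of 1.84, and 13 each way after the span correction.

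WRKY transcription factors had few members called lower in roots. Of 51 tested WRKY factors, many of them regulators of defence, 42 were called higher in roots (82.4%, background 73.0%). Only 2 were called lower (3.92%, background 14.2%). The median was 1.91, with 29 higher and 5 lower after the span correction. WRKY65 (AT1G29280) stood at 94.8 and 109 FPKM in roots and 3.95 and 2.98 FPKM in shoots, with 4.53 (SE 0.16, limma adjusted p = 2.55e-07). Of 21 LBD factors, 16 were called higher and 4 lower, with a median of 1.44, near that of all genes, and 10 and 5 after the span correction. Family members included LBD13 at 22.9 and 26.7 FPKM in roots and 0 and 0.114 FPKM in shoots (4.61) and LBD21 at 0.247 and 0.0982 FPKM in roots and 31.3 and 28.8 FPKM in shoots (-4.73).

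The BBX and TCP families leaned to the shoot. Of 25 BBX factors, zinc finger proteins of light signalling, 7 were called higher and 16 lower in roots, with a median of -0.92, and 2 higher and 19 lower after the span correction. COL16 (AT1G25440) stood at 0.679 and 0.848 FPKM in roots and 21.2 and 23.3 FPKM in shoots, with -3.72 (SE 0.22, limma adjusted p = 3.46e-06), whereas BBX21 stood at 128 and 126 FPKM in roots and 17.2 and 18.1 FPKM in shoots, with 2.78. Of 16 tested TCP factors 1 was called higher and 8 lower, with a median of -0.51, and 0 higher and 13 lower after the span correction. TCP4 (AT3G15030), which limits cell division in leaves, stood at 3.996 and 4.66 FPKM in roots and 28.9 and 31.8 FPKM in shoots, with -2.56 (SE 0.17, limma adjusted p = 5.38e-06).

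A last comparison asked whether the organ contrast of OE-SAUR41 differed from that of Col-0. Over 19863 genes with at least 1 FPKM in 2 of the 8 libraries, limma called 0 genes for the difference, OE-SAUR41 contrast minus Col-0 contrast (0%), and 948 had an unadjusted p under 0.05. The smallest limma adjusted p was 0.577. This count rested on the Col-0 shoot pair, since leaving out Col-0 shoot 2 gave 6904 calls (6368 positive, 536 negative) and leaving out Col-0 shoot 1 gave 1. The other single libraries, left out in turn, gave 0 each.

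The contrasts of the 2 genotypes share no library and ran together across genes, which are not independent replicates. Pearson's r was 0.960 and Spearman's rho 0.918 over 19863 genes with both Col-0 shoots, 0.969 and 0.943 with Col-0 shoot 2 alone, and 0.903 and 0.773 with Col-0 shoot 1 alone. In the fit over 8 libraries, 15452 of 19863 genes were called in OE-SAUR41 and 13094 in Col-0. In both genotypes 12253 genes were called in the same direction, and 4 in opposite directions. The 12253 made up 79.3% of the OE-SAUR41 calls and 93.6% of the Col-0 calls. Because most genes were called in each genotype, this overlap alone does not measure their likeness.

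**Figure D5:**
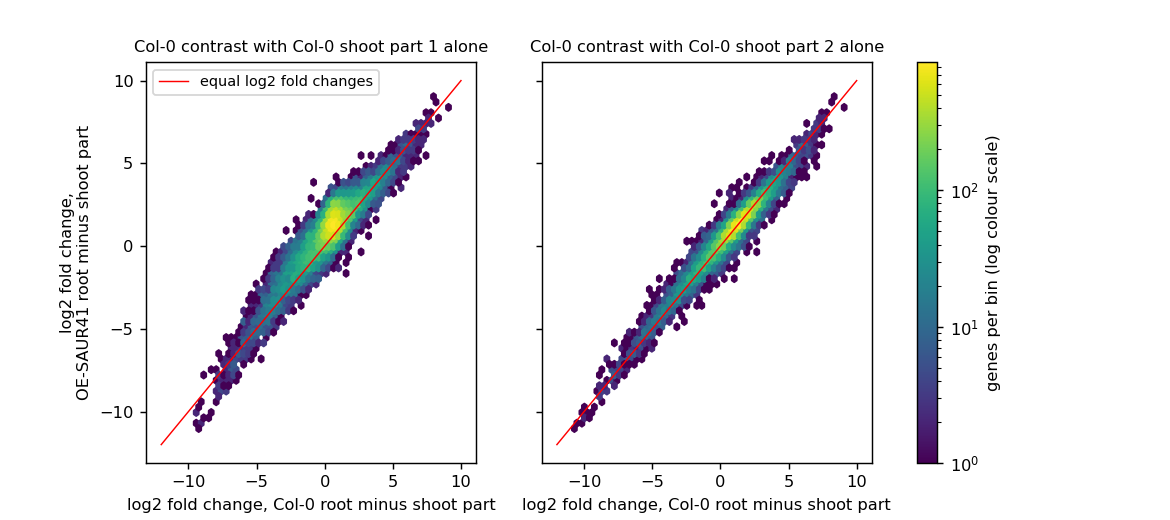
Log2 fold change of root minus shoot part in OE-SAUR41 (vertical axis) against that in Col-0 (horizontal axis) for 19863 genes, with Col-0 shoot part 1 alone (left) and shoot part 2 alone (right), colour showing genes per bin on a log scale. The cloud lies along the line of equal values with shoot part 2 (Pearson's r = 0.969) and is broader and mostly above it with shoot part 1 (0.903).

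The 3 genes with the smallest p in each direction did not pass the test. CYP82C4 passed it with no filter on low values (-1.64, limma adjusted p = 0.0348). Without Col-0 shoot 2, which left 1 Col-0 shoot library, the negative differences ran from -2.15 to -1.64. The positive ones then ran from 1.78 to 1.87. All 6 genes were picked for a small p in this same contrast. AT2G02050 stood at 103 and 109 FPKM in roots and 9.98 and 11.1 FPKM in shoots of OE-SAUR41 and at 110.0 and 99.1 FPKM in roots and 40.4 and 35.6 FPKM in shoots of Col-0, a difference of 1.78 (SE 0.23, limma adjusted p = 0.577). NIT2 (AT3G44300), a nitrilase, stood at 177 and 214 FPKM in roots and 9.06 and 8.801 FPKM in shoots of OE-SAUR41 and at 231 and 198 FPKM in roots and 2.17 and 1.62 FPKM in shoots of Col-0, a difference of -1.92 (SE 0.27, limma adjusted p = 0.577). The organs did not overlap within a genotype for either gene, and the shoots of the genotypes were apart. In OE-SAUR41, organs that did not overlap were common among all genes tested. MLP34, a major latex protein-like gene, had -1.92, IPSP 1.79, CDEF1 1.61 and CYP82C4, a P450 of coumarin synthesis, -1.64. IPSP and CYP82C4 differed between the genotypes in roots, with 11.1 and 11.5 FPKM and 0.139 and 0.194 FPKM in OE-SAUR41 and 2.16 and 2.84 FPKM and 2.69 and 2.57 FPKM in Col-0.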

How the data were processed

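Each library had 1 file of FPKM values, made and deposited by the authors, per the file headers. The build was TAIR10, per the submitters' processing notes. Not given in the sources used here are the aligner, quantifier and strand setting. Depth is unknown. A gene not listed in a file was taken as 0. Starts were raised by 1 to count from 1. Locus tags of 25139 genes matched a gene table of TAIR10.1, used for names. Values of 3635 genes that share a locus are uncertain. AT2G01010, AT3G41768 and LHCB1.3, listed in 1 library of a group at over 100 FPKM and absent from the other, were left out.

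Genes with at least 1 FPKM in 2 of the 4 libraries were tested on log2(FPKM + 1) with limma 3.58.1 (trend) in R 4.3.3, called at adjusted p under 0.05 (2 residual, 5.57 prior degrees of freedom). An exact permutation test of 2 against 2 cannot go below 0.333. The fit was tested on simulated data. The labels do not say whether replicate numbers pair the samples, and the main fit did not use them as pairs. The 21 lists, 14 families and named genes were chosen with earlier results of these data known. Named were the subfamily, the 10 largest changes each way at 20 FPKM or more without shared locus, and the largest called members of each list (up to 5 each way) and family (up to 2); the text gives a part of these. CAT2, AMT2;1 and ATPC1 were named after their values were seen. Alternatives were other pseudocounts, filters, scalings, variance models, all 8 libraries, a least fold change, the replicate block and leaving out libraries; median centring and the span correction (lowess, span 0.3) were added after seeing the data. Tables used pandas 2.3.3 in Python 3.11.15, and plots matplotlib 3.10.9.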

Additional observations from a re-analysis of the deposited data

Results flagged for a closer look

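CDEF1 (AT4G30140), a cutinase gene, ran in opposite directions in the 2 genotypes. It stood at 34.2 and 35.1 FPKM in roots and 19.5 and 17.6 FPKM in shoots of OE-SAUR41, and at 37.3 and 43.4 FPKM in roots and 76.7 and 60.2 FPKM in shoots of Col-0. Both roots thus lay above both shoots in OE-SAUR41 and below both in Col-0. The difference of the contrasts was 1.61 (SE 0.27, limma adjusted p = 0.628), which did not pass the test. Without Col-0 shoot 2, which left 1 Col-0 shoot library, the difference was 1.78. The direction within OE-SAUR41 turned under TMM scaling, median centring and the span correction, and the Col-0 shoot pair differs from the other pairs with gene span. Their part in the result was not tested.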

How the results depend on the processing

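The number of genes called in roots against shoots stayed within 1.5 times of 16659 under every alternative except a least log2 fold change of 1, which gave 9478. Leaving out a single library gave 13903 to 15452. The replicate number as a block gave 16840 calls, and the correlation of replicate deviations between the organs was -0.01. The labels do not say whether same-numbered root and shoot libraries came from the same seedlings, and this correlation cannot decide it. For the difference between genotypes, 0 calls became 2 with no filter, and leaving out single libraries gave 0 to 6904. The replicate block called 0.

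SAUR41, at -0.78, was past the threshold with no trend (-0.78), with a robust fit (-0.78) and with the span correction (-1.62), and reversed with quantile normalization (0.98). Without single libraries it ranged from -1.16 to -0.39. Of the list medians relative to all genes, leaf and root isoforms reversed with TMM scaling (-0.15) and a pseudocount of 0.1 (-0.14). Indole glucosinolates reversed with TMM scaling (-0.25), a filter at 5 FPKM (-0.11) and a pseudocount of 0.1 (-0.24), and auxin carriers with TMM scaling (-0.029), a pseudocount of 0.1 (-0.014) and the span correction (-0.20). Vascular genes, at -0.08, became positive with TMM scaling (0.31), a filter at 5 FPKM (0.18), no filter (0.27), pseudocounts of 0.1 (0.52) and 5 (0.39), quantile normalization (0.32), the span correction (0.19) and ranged from -0.084 to 0.081 without single libraries. Single genes described above that reversed, besides SAUR41, were HEMA2 (TMM -0.15, median centring -0.028, span correction -0.069), GLN1;1 (-0.71, -0.47 and -0.50), AHA1 (-0.46, -0.22 and -0.85) and CDEF1 (-0.58, -0.39 and -0.37), in the same order of settings. Called list members not described above reversed as well, among them CYP86A4 and GPAT6 under all 4 scalings. LACS2 did so under TMM scaling, median centring and the span correction. MYB28 turned under TMM scaling, GSTF9 under quantile normalization, and IGMT5 and CESA7 under the span correction. The values of single genes followed through the alternatives included SAUR41 but not these list members. Of those values, 2383 kept their direction and side of the threshold, 44 lost the call, 12 gained one and 13 reversed. The cause was not tested.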
